A study of Mus musculus with 16 samples.

Results

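The genes that copy DNA and supply its building blocks were followed in RAW264.7, a mouse line with macrophage features that grows in culture, after siRNA against Cebpb and after isoproterenol. The group was set by name as 48 genes of origin licensing, the replicative helicase, the polymerases, the sliding clamp, fork protection, chromatin assembly and nucleotide synthesis. All 48 were found once each among 52636 gene entries, all were listed above zero in all 16 libraries, and all were among the 11060 genes that passed the filter on low values. The series holds 4 groups of 4 libraries. Controls received a control siRNA, the second group an siRNA to knock down Cebpb, which encodes the transcription factor C/EBPβ, and the other 2 groups the same siRNAs followed by isoproterenol, an agonist of β-adrenergic receptors. Every group, controls included, was transfected with its siRNA at 25 nM for 24 h with a lipid reagent, and Cebpb was targeted with a single product. No source used here gives how much isoproterenol was applied or for how long. Each group has 2 replicates from each of 2 experiments, and these are biological replicates by the submitters' own design note.

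Before a cell copies its genome, the origin recognition complex, Cdc6 and Cdt1 load the ring-shaped MCM complex onto DNA, and geminin blocks Cdt1 from loading it again. In S phase Cdc45 and the GINS complex turn the loaded ring into the active helicase, polymerase α with its primase starts each strand, and polymerases δ and ε extend it while held by the clamp PCNA. Ribonucleotide reductase and thymidylate synthase supply deoxynucleotides. Transcription of many of these genes is known to rise when E2F factors are released from the retinoblastoma protein late in G1, so that their transcript levels are widely used as a measure of proliferation.

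Levels are given as RPM, a read count scaled to the same number of sequenced reads in each library, from sequencing of the 3′ ends of transcripts, in which one read stands for one transcript end and values are not divided by gene length. Lists of 4 values name the libraries in a fixed order, replicates 1 and 2 of experiment 1, then replicates 1 and 2 of experiment 2. Fold changes are on the log2 scale with their standard error (SE), from one limma fit over all 16 libraries with the experiment as a term. A gene is said to have fallen or risen where its p-value, adjusted over all 11060 genes by the Benjamini-Hochberg method, was under 0.05. Library totals ran from 9.42 to 25.17 M reads, and the shallowest was replicate 2 of experiment 2 with Cebpb siRNA. That library stood above the other 3 of its group in Mcm2, Mcm4, Cdc45 and Gmnn, and it had the highest Cebpb of its group. It was also the highest of its group for many other members, among them Orc1, Mcm6, Pcna, Fen1, Rrm1, Rrm2, Tyms, Dut, Ung and Chaf1a. For others, among them Mcm3, Mcm5, Lig1 and Rpa2, it was not. Cebpb itself was at 74.5, 61.3, 81.4 and 87.3 RPM with control siRNA and 11.8, 24.96, 21.8 and 33.1 RPM with Cebpb siRNA, a log2 change of −1.73 ± 0.19 (limma adjusted p = 4.02e-07). All 8 macrophage markers checked were listed, with summed levels of 1188 to 1606 RPM in control siRNA libraries and 1423 to 1514 RPM in Cebpb siRNA libraries, and none of the fibroblast, epithelial or B cell markers was listed in any library. Of the other marker lists, 1 of 6 T and NK cell, 1 of 5 neutrophil and 2 of 5 dendritic cell markers were listed, together at most 10.63 RPM per list. With Cebpb siRNA without isoproterenol 2 of the 8 macrophage markers were called lower and 5 higher, with Fcgr1 at −1.38 ± 0.12 and Cd14 at 0.74 ± 0.09 on the log2 scale. The dendritic marker Batf3 (−1.99 ± 0.17), the neutrophil marker S100a8 (−1.37 ± 0.15) and the T cell marker Lck (−0.50 ± 0.16) were called lower by limma. Means with control and Cebpb siRNA were 2.85 and 0.26 RPM for S100a8 and 5.265 and 1.00 RPM for Batf3. Values of 1 RPM or less are deposited as 0, so the size of both changes depends on that floor. S100a8 passed the filter on low values through the control siRNA groups. Unmapped reads made up 5.45% ± 0.343 (SD, n = 4) of control libraries and 6.96% ± 0.577 of Cebpb siRNA libraries, and mitochondrial genes 3.29% ± 0.212 and 4.47% ± 0.161. The part of these differences in the results was not tested.

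The comparison of Cebpb siRNA with control siRNA without isoproterenol asks what this siRNA changes in unstimulated cells. Cebpb RNA was at 30.15% of control, and these data hold no measure of C/EBPβ protein. Effects of the single siRNA product other than on Cebpb were not tested. Every one of the 48 replication genes fell, and none rose. In the same comparison 30.4% of all genes tested were called lower and 30.9% higher, so the members fell in a setting where most genes were called in one direction or the other. The median change of the 48 was −1.38 on the log2 scale, against 0.01 for all genes tested, and the range ran from −3.49 for Cdca7 to −0.34 for Rfc1. For all 48, each of the 4 siRNA libraries lay below each of the 4 control libraries, which held for 28% of all genes tested. Without the shallowest library the count called lower was also 48, and in experiment 2 alone it was 46. The share of all genes called in those settings is not given here. In RNA from whole cultures, fewer cells of a kind and less RNA per cell cannot be told apart.

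**Figure D1:**
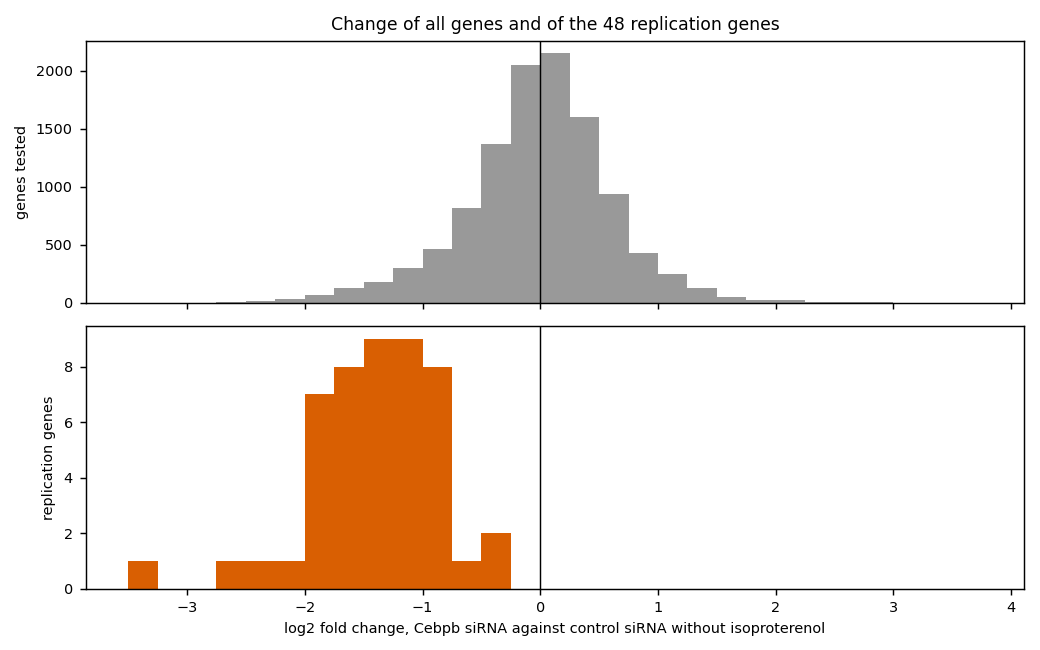
Numbers of genes by log2 fold change (bins of 0.25) with Cebpb siRNA against control siRNA, both without isoproterenol, for all 11060 genes tested (upper panel) and for the 48 replication genes (lower panel). All genes centre on a median of 0.01, while the replication genes lie between −3.49 and −0.34.

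**Figure D2:**
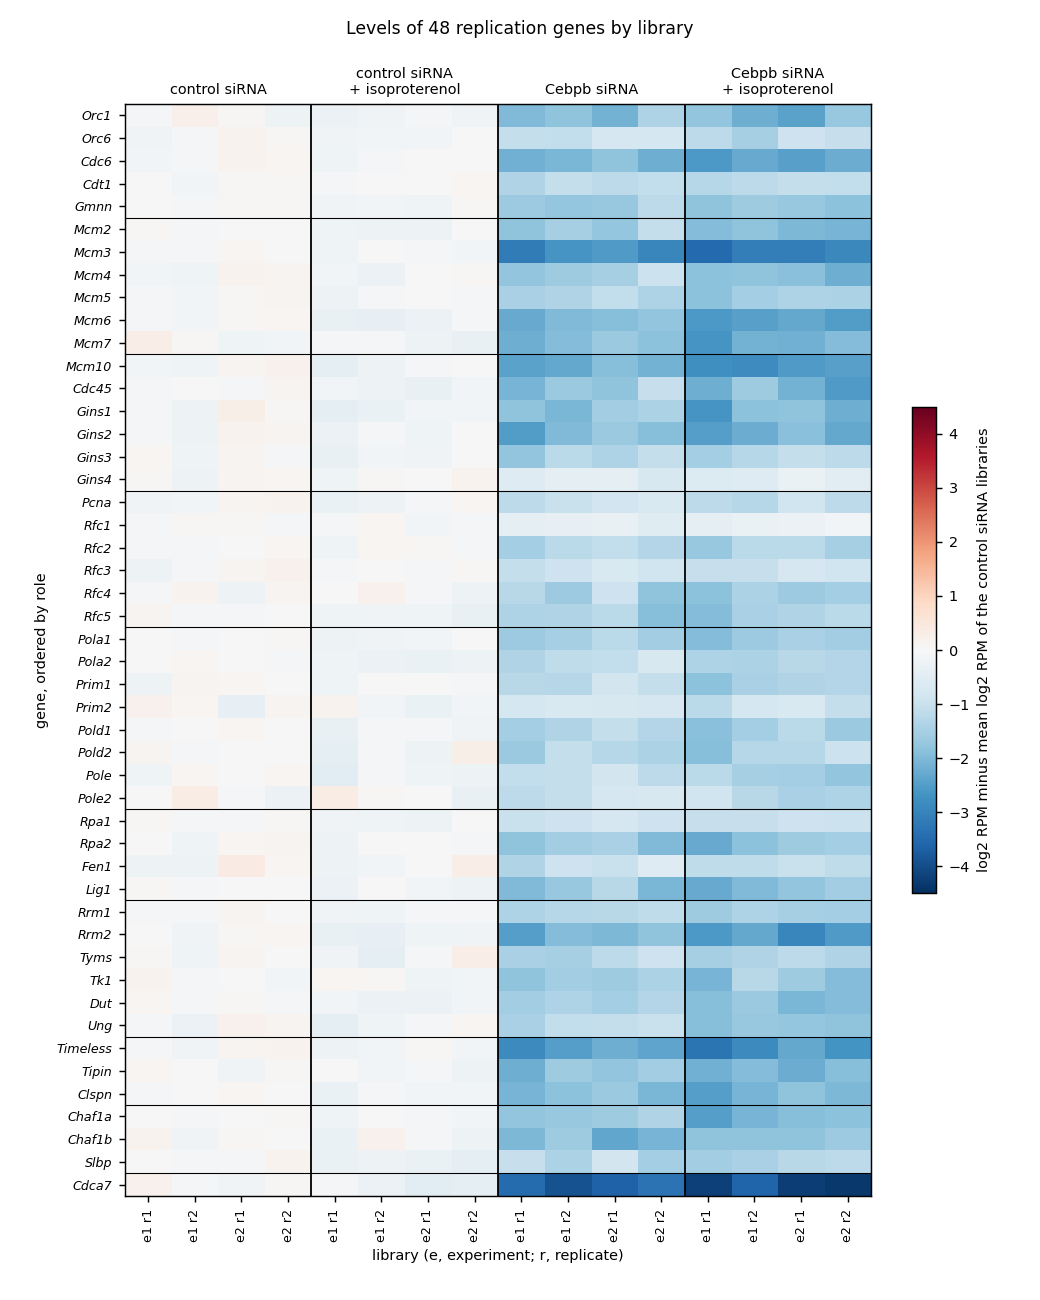
Level of each of the 48 genes in each of the 16 libraries, as log2 RPM minus the gene's mean log2 RPM over the 4 control siRNA libraries; rows follow the order of roles, columns are libraries by experiment (e) and replicate (r). The 8 Cebpb siRNA libraries are shaded lower in nearly every row, down to −4.34 for Cdca7, and Rfc1 and Gins4 are the palest.

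Cdca7 (ENSMUSG00000055612.15, chr2:72476159-72486893, plus strand, GRCm38), a zinc finger protein with a role in the methylation and remodelling of heterochromatin, had the largest fall of all 11060 genes. It was at 35.2, 28.9, 27.3 and 31.7 RPM with control siRNA and at 2.78, 2.05, 2.46 and 3.08 RPM with Cebpb siRNA. The change was −3.49 ± 0.15 on the log2 scale (limma adjusted p = 3.56e-14), or 8.87% of the control level, with −3.69 in experiment 1 and −3.30 in experiment 2. With values of 2 to 3 RPM in the siRNA libraries, the transcript stood not far above the floor of 1 RPM.

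Among the 5 genes of origin recognition and licensing the median change was −1.48. Cdc6, the ATPase that recruits MCM rings to origins, was at 48.8, 49.9, 58.8 and 56.5 RPM in controls and 11.8, 12.7, 15.2 and 11.6 RPM with Cebpb siRNA. It fell by 1.98 ± 0.08 on the log2 scale (limma adjusted p = 1.10e-14), to 25.4% of control. Cdt1, its partner in loading the helicase, went from 118, 109.5, 122 and 122 to 46.4, 56.7, 52.6 and 54.7 RPM, a change of −1.08 ± 0.06 (limma adjusted p = 3.78e-13). Gmnn, which encodes the Cdt1 inhibitor geminin, changed by −1.48 ± 0.10, Orc1 by −1.74 ± 0.18 and Orc6 by −0.85 ± 0.09, all called lower. Orc1 and Orc6 encode subunits of the complex that marks origins. Gmnn was at 24.4 RPM in the shallowest library and at 16.6 to 17.8 RPM in the other 3 of its group, all below the control range of 52.5 to 57.4 RPM.

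All 6 subunits of the MCM ring fell, with a median of −1.63. Mcm3 (ENSMUSG00000041859.10, chr1:20802968-20820312, minus strand) had the largest fall of the 6, with 219, 219.6, 238 and 229 RPM with control siRNA and 25.3, 36, 38.3 and 29.7 RPM with Cebpb siRNA, a change of −2.74 ± 0.10 (limma adjusted p = 8.49e-16). Mcm5, with the highest mean over all 16 libraries of the 6 but below Mcm6 in both control siRNA groups, went from 227, 215, 247 and 260.1 to 86.6, 91.8, 110.2 and 91.4 RPM (−1.24 ± 0.06, limma adjusted p = 4.47e-13). The subunits joined in one ring in the protein complex were thus at 14.96% and 42.4% of control at the transcript level. Mcm6 changed by −1.90 ± 0.07, Mcm7 by −1.82 ± 0.13, Mcm2 by −1.44 ± 0.11 and Mcm4 by −1.38 ± 0.12. Mcm7 moved by −2.18 in experiment 1 and −1.46 in experiment 2, a wider gap between experiments than for Mcm3 (−2.81 in experiment 1 and −2.67 in experiment 2). In the shallowest library Mcm2 was at 50.7 and Mcm4 at 54.1 RPM, against 30.5 to 37.7 and 31.4 to 37.5 RPM in the other 3, and control libraries held 99.6 to 111 and 94.2 to 119.9 RPM.

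Genes that turn the loaded ring into a working helicase fell with a median of −1.60 over 6. Mcm10, which acts at the step of origin firing, was at 52.4, 50.9, 62.4 and 66.3 RPM in controls and 10.7, 11.8, 15.4 and 13.1 RPM with Cebpb siRNA (−2.10 ± 0.07, limma adjusted p = 8.04e-16). The GINS complex has 4 subunits. Gins2 went from 53.2, 46.7, 60.4 and 59.5 to 9.55, 13.9, 17.2 and 14.5 RPM (−1.93 ± 0.11, limma adjusted p = 1.51e-12). Gins4, in contrast, went from 19.8, 15.98, 20.4 and 20.01 to 12.7, 14.1, 14.1 and 11.46 RPM, a small change at −0.46 ± 0.09 (limma adjusted p = 1.67e-04). Its groups still did not overlap. Gins1 changed by −1.63 ± 0.13, Gins3 by −1.28 ± 0.12 and Cdc45, the third part of the active helicase, by −1.57 ± 0.18. Cdc45 was at 9.23 RPM in the shallowest library and at 4.42 to 5.89 RPM in the other 3.

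The clamp and its loader had the second smallest median, −1.03 over 6 genes. Rfc1, the large subunit of the clamp loader, had the smallest change of all: 102, 109, 108 and 101 RPM in controls and 77.5, 80.8, 82.6 and 72.4 RPM with Cebpb siRNA. That is −0.34 ± 0.06 on the log2 scale (limma adjusted p = 1.03e-04), or 79.02% of control, with −0.36 in experiment 1 and −0.32 in experiment 2. The small subunits fell further, with changes of −1.204 ± 0.09 for Rfc2, −0.81 ± 0.07 for Rfc3, −1.33 ± 0.15 for Rfc4 and −1.39 ± 0.13 for Rfc5. Pcna, the clamp that tethers the polymerases, changed by −0.85 ± 0.07, from 87.6 ± 9.25 to 45.99 ± 6.63 RPM (SD, n = 4 each).

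Polymerase and primase genes fell with the smallest median, −1.01 over 8 genes. Pola1, the catalytic subunit of polymerase α, went from 61.5, 60.7, 64.3 and 65.8 to 20.5, 22.3, 27.2 and 21.2 RPM (−1.39 ± 0.08, limma adjusted p = 8.07e-13). Prim2, the large primase subunit, was at 7.14, 6.67, 4.86 and 6.88 RPM and at 3.67, 3.89, 3.85 and 3.71 RPM, among the 3 smallest changes (−0.66 ± 0.15, limma adjusted p = 6.65e-04). Fitted on experiment 2 alone, Prim2 was at −0.49 with a limma adjusted p of 0.0904. The polymerase δ genes Pold1 and Pold2 changed by −1.23 ± 0.10 and −1.28 ± 0.15, the polymerase ε genes Pole and Pole2 by −0.96 ± 0.13 and −0.85 ± 0.18. Pole2, at 1.79 to 2.44 RPM with Cebpb siRNA, is the member nearest to the floor of 1 RPM, with −1.25 in experiment 1 and −0.45 in experiment 2. Pola2 and Prim1, the second subunit of polymerase α and the catalytic primase, changed by −0.997 ± 0.11 and −1.02 ± 0.10.

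Of the genes that bind single strands and join fragments, Lig1, the ligase that seals Okazaki fragments, had the highest mean of the 48 over all 16 libraries and in both control siRNA groups, though not in the Cebpb siRNA groups, where Mcm5 or Rfc1 was highest. It was at 308, 289, 302 and 293 RPM in controls and 74.8, 91.9, 125 and 72.1 RPM with Cebpb siRNA (−1.66 ± 0.13, limma adjusted p = 1.28e-09). Its values spread most in the siRNA group, where replicate 1 of experiment 2 was highest. Rpa2 and Rpa1, subunits of the single-strand binding protein RPA, changed by −1.62 ± 0.11 and −0.81 ± 0.07. Fen1, the nuclease that trims fragment ends, changed by −0.88 ± 0.10.

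Nucleotide genes fell with a median of −1.28 over 6. Rrm2, the small subunit of ribonucleotide reductase and the one known to be made in S phase and degraded afterwards, was at 55.4, 49.2, 56.3 and 57.7 RPM in controls and 9.79, 14.03, 13.4 and 15.4 RPM with Cebpb siRNA (−1.99 ± 0.12, limma adjusted p = 4.34e-12). Rrm1, the large subunit, whose protein is known to be more stable through the cycle, went from 133, 134, 150.3 and 141 to 53.5, 57.7, 58.04 and 62.5 RPM (−1.18 ± 0.06, limma adjusted p = 2.17e-13). The salvage kinase Tk1 changed by −1.51 ± 0.14 and thymidylate synthase Tyms by −1.18 ± 0.11. Dut, which removes dUTP, changed by −1.37 ± 0.08, and Ung, the glycosylase that cuts uracil out of DNA, by −1.08 ± 0.08.

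The fork protection genes had the largest median of the groups of several genes, −1.83 over 3. Timeless, which couples helicase and polymerase, was at 25.2, 24.1, 29.3 and 29.8 RPM and 3.67, 4.79, 5.92 and 5.20 RPM (−2.40 ± 0.12, limma adjusted p = 2.08e-13). Its partner Tipin changed by −1.70 ± 0.11. Clspn, the adaptor claspin that passes fork stress on to the kinase Chk1, went from 109, 112, 123 and 115 to 26.6, 32.3, 35.7 and 27.6 RPM (−1.83 ± 0.09, limma adjusted p = 2.04e-13). In chromatin assembly, Chaf1b, a subunit of the histone chaperone CAF-1, was at 10.4, 8.47, 9.73 and 9.34 RPM and 2.31, 3.15, 1.87 and 2.23 RPM (−1.93 ± 0.14, limma adjusted p = 1.11e-10). Chaf1a, its large subunit, went from 48.5, 47.02, 50.2 and 51.2 to 14.3, 15.2, 16.4 and 19.4 RPM (−1.52 ± 0.10, limma adjusted p = 7.40e-12). Slbp, which binds the stem-loop of histone mRNA, changed by −1.11 ± 0.14. None of the ranges of these 6 genes overlapped between the groups, as for all 48 members and, in this direction, 28% of all genes tested.

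**Figure D3:**
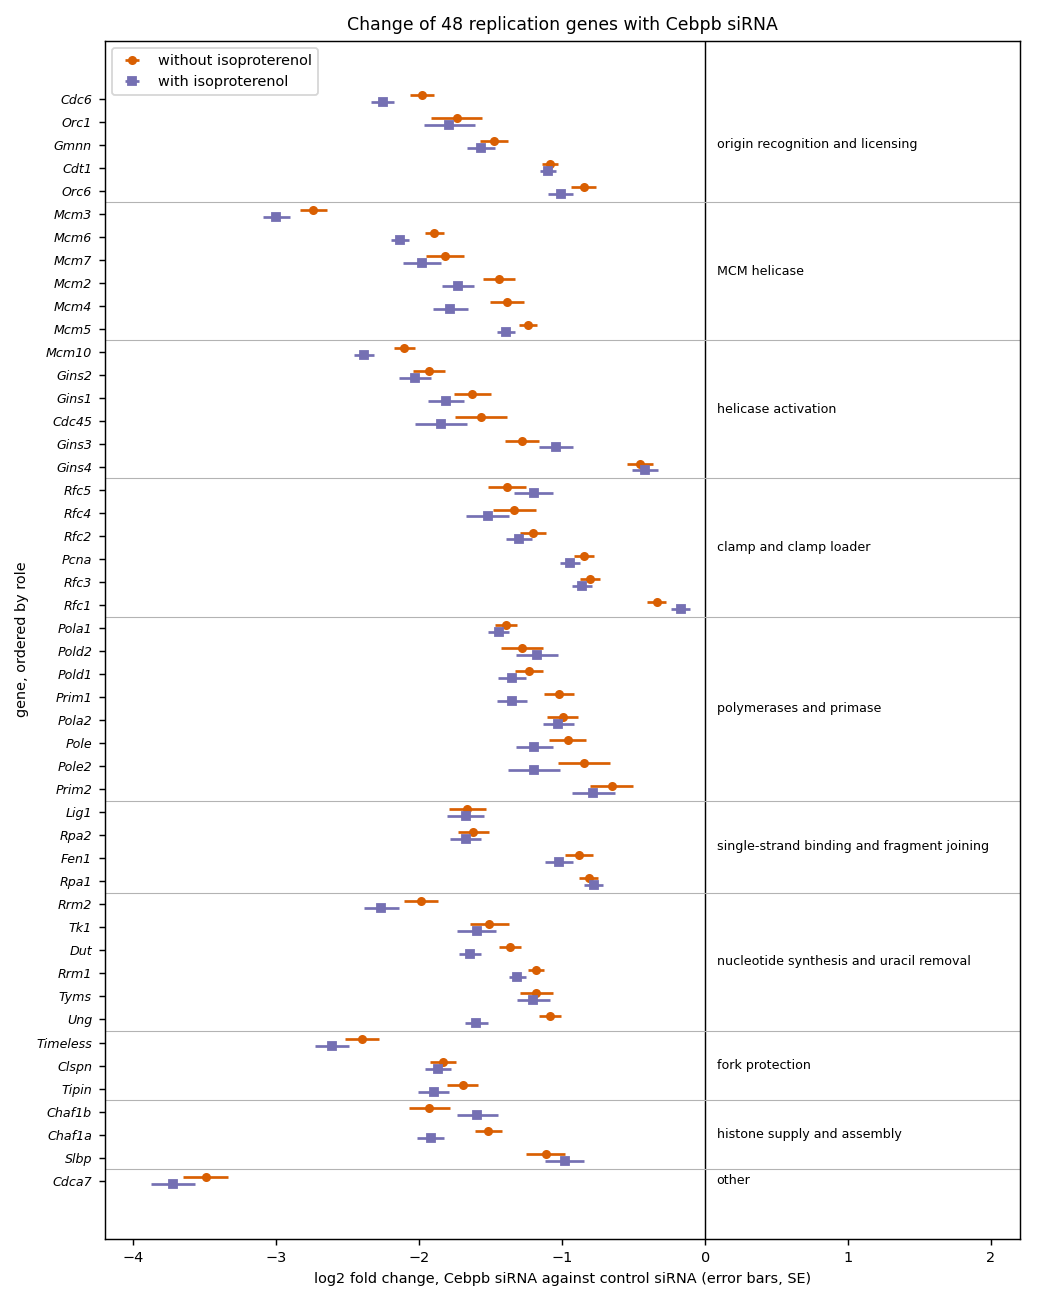
Log2 fold change with Cebpb siRNA against control siRNA for each of the 48 genes, without (circles) and with isoproterenol (squares), with SE from limma over 16 libraries; genes are grouped by role. All points lie left of zero, with Cdca7 and Mcm3 farthest and Rfc1 and Gins4 nearest.

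Promoters were searched for words of the E2F type, since E2F factors are known to act on many of these genes, and 5 promoters that hold one are printed. Promoters of 39 of the 48 genes were found in the RefSeq table (GRCm38.p6), each a window of 300 bases that ends 50 bases after an annotated start; Gins1, Gins2, Gins4, Gmnn, Mcm4, Pole, Prim2, Rfc2 and Tipin had no entry there. The words TTTGGCGC, TTTCCCGC, TTTCGCGC and TTTGCCGC were searched on both strands, and matches may overlap. At least one was found for 15 of the 39 genes (38.5%) and for 425 of 8386 tested genes with a promoter in the table (5.07%). Some windows lie inside the gene as GENCODE vM21 annotates it, so they need not cover its first start. Among them are those of Cdc6 (gene from chr11:98907801) and Dut (gene from chr2:125247190), and the share counts such windows as they are. The sequences run 5′ to 3′ on the strand of the gene, with the matched words in capitals. They are from Cdca7 (chr2:72475969-72476268, plus strand), Mcm3 (chr1:20820263-20820562, minus), Mcm6 (chr1:128359656-128359955, minus), Cdc6 (chr11:98907901-98908200, plus) and Orc1 (chr4:108579204-108579503, plus).
Cdca7: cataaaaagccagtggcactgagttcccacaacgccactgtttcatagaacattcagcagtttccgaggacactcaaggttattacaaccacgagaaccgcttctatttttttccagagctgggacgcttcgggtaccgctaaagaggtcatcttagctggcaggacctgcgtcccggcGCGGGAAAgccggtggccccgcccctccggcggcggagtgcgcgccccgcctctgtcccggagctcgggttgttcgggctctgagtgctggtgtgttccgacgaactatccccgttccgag
Mcm3: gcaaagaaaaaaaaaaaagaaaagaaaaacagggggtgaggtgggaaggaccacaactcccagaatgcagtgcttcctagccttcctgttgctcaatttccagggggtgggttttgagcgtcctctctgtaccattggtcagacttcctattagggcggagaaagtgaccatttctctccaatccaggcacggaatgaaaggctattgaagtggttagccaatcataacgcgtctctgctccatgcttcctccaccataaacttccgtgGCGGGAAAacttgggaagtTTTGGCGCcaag
Mcm6: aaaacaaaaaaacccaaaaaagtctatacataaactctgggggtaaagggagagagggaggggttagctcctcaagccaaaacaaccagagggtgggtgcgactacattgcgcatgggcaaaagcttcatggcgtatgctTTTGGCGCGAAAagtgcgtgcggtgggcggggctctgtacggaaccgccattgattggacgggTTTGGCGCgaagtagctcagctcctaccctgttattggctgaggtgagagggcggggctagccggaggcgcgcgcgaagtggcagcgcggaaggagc
Cdc6: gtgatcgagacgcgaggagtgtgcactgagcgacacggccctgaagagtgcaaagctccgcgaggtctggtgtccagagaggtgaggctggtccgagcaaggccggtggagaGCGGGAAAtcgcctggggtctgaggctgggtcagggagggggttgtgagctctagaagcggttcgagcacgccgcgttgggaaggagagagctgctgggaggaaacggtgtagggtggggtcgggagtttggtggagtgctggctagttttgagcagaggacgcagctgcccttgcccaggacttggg
Orc1: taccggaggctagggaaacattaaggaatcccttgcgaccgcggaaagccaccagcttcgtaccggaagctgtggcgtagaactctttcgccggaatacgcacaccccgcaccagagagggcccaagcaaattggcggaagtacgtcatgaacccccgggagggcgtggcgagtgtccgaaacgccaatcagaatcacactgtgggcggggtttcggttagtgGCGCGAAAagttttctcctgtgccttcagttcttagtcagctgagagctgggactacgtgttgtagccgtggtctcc
The Mcm6 promoter holds 3 matches, of which 2 overlap on opposite strands, Mcm3 holds 2 and the other 3 promoters 1 each. In the comparison without isoproterenol the median log2 change was −1.66 for the 15 members with a match and −1.31 for the 24 without. Over all tested genes with a promoter in the table, it was −0.20 for the 425 with a match and 0.02 for the 7961 without. Timeless, Mcm10 and Rrm2, 3 of the members with the largest falls, had no match in this window. The Timeless window (chr10:128237816-128238115, plus strand) lies inside the gene, which GENCODE vM21 annotates from chr10:128232065. The first annotated start of Timeless was thus not searched. The CCAAT word bound by NF-Y was in 59% of the members and 43.3% of tested genes. The C/EBP word TTGCNNAA was in 10.3% and 10.1%. A match is a description of letters and was not tested as a binding site.

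A word in the 3′ ends was also counted, since an earlier look at these data had found 3′ UTRs with AACTTGT to be lower after Cebpb siRNA. It occurs in the longest annotated 3′ UTR (GENCODE vM21, GRCm38) of 8 of the 48 members (16.7%) and of 15.4% of 10127 tested genes. Over all these genes the median log2 change was −0.22 with the word and 0.07 without its 6-base core, which restates the earlier look and is no independent evidence. The genes with the word also have longer 3′ UTRs, with a median of 2608 against 911 bases. Among the members the median change was −1.19 for the 8 with the word, −1.70 for the 7 with the core only and −1.33 for the 33 without the core. The sites in Cdca7 (chr2:72486124-72486130, plus strand), Mcm6 (chr1:128331597-128331603, minus) and Rfc2 (chr5:134599135-134599142, plus) are shown with the word in capitals, as the first 2 genes fell most among the 8 and Rfc2 holds the word extended by A.
Cdca7: aagagccccttAACTTGTttacacagaat
Mcm6: gaaaataaaacAACTTGTtctg
Rfc2: tctaatatagtAACTTGTAgcatccatttc
No source used here gives the letters of the siRNA, and a match of the word to it was not tested.

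With isoproterenol present, the comparison of the siRNAs asks the same question in stimulated cells. Again all 48 genes fell and none rose, where 30.3% of all genes were called lower and 31.6% higher. The median was −1.55, from −3.72 for Cdca7 to −0.17 for Rfc1. No member's ranges overlapped between the groups, which held for 27.5% of all genes in this direction. The 2 siRNA comparisons share no libraries. Cdca7 was at 29.9, 25.5, 22.1 and 22.96 RPM with control siRNA and isoproterenol and at 1.68, 2.54, 1.64 and 1.52 RPM with both treatments. Mcm3 was at 199.8, 228, 216 and 208 and 19.99, 26.01, 26.4 and 30.5 RPM (−3.00 ± 0.10, limma adjusted p = 1.60e-16). Both stayed among the members with the largest falls, followed by Timeless (−2.61 ± 0.12), Mcm10 (−2.38 ± 0.07), Rrm2 (−2.26 ± 0.12) and Cdc6 (−2.26 ± 0.08). At the other end, Rfc1 was at 97.7, 113, 97.3 and 102 and 79.5, 84.8, 86.7 and 96.3 RPM (−0.17 ± 0.06, limma adjusted p = 0.0269), with −0.29 in experiment 1 and −0.05 in experiment 2. The Rfc1 call was lost in 4 of 28 other settings, with limma adjusted p-values of 0.0763 to 0.695. Gins4 was at 16.5, 19.5, 18.5 and 21.1 and 12.4, 12.7, 15.2 and 13.7 RPM (−0.42 ± 0.09, limma adjusted p = 3.90e-04).

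Subunits of one complex were compared by their ratios. For each subunit of 4 complexes the log2 ratio to the mean of its partners was taken within each library, so that library scaling cancels, and compared between siRNAs. With 4 pairs of genes this gave 46 ratios over both comparisons. An exact two-sided permutation test of 4 against 4 libraries cannot go below p = 0.0286, and 26 ratios reached that value because their groups did not overlap. That permutation test shuffles libraries across the experiments, and an exact permutation test within experiments could not go below p = 0.0556. After Benjamini-Hochberg adjustment over the 46 the smallest p was 0.051. No ratio could pass unless 27 of the 46 reached the smallest p, so the adjusted values say nothing of a single ratio, and the differences are given as descriptions. Without replicate 2 of experiment 2 of the group with Cebpb siRNA and isoproterenol, 23 subunit ratios and 4 pair ratios passed. The ratio of Mcm3 to the other MCM subunits differed from control by −1.19 ± 0.14 (SE) without and −1.195 ± 0.11 with isoproterenol, with −1.11 and −1.26 in experiments 1 and 2 without it. That of Mcm5 differed from control by 0.62 ± 0.11 and 0.73 ± 0.08, in the opposite direction. Within a complex each subunit enters the mean its partners are set against, so a lower ratio of any subunit raises theirs by construction. Opposite shifts within a complex are thus not separate observations. The Mcm7 ratio differed from control by −0.08 ± 0.16 without isoproterenol and its groups overlapped. Gins4 differed from control by 1.16 ± 0.16 and 1.21 ± 0.10 relative to the other GINS subunits, and Gins2 by −0.81 ± 0.12 and −0.94 ± 0.06. In the clamp loader, Rfc1 differed from control by 0.84 ± 0.09 and 1.05 ± 0.08 relative to the small subunits. Pola1 differed from control by −0.50 ± 0.10 and −0.39 ± 0.07 relative to its partners. Prim2 differed from control by 0.48 ± 0.17 and 0.49 ± 0.14, and its groups overlapped in the comparison with isoproterenol.

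Of the pairs, the ratio of Rrm2 to Rrm1 differed from control by −0.80 ± 0.11 without and −0.95 ± 0.13 with isoproterenol (exact permutation p = 0.0286 for each, before adjustment). The ratio of Cdt1 to its inhibitor Gmnn differed from control by 0.40 ± 0.14 and 0.47 ± 0.08, also without overlap. Tk1 to Tyms differed from control by −0.33 ± 0.11 and −0.40 ± 0.26, with overlapping groups in both. The ratio of Chaf1b to Chaf1a differed from control by −0.41 ± 0.22 without and 0.33 ± 0.14 with isoproterenol, opposite in sign, and its groups overlapped in both comparisons.

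**Figure D4:**
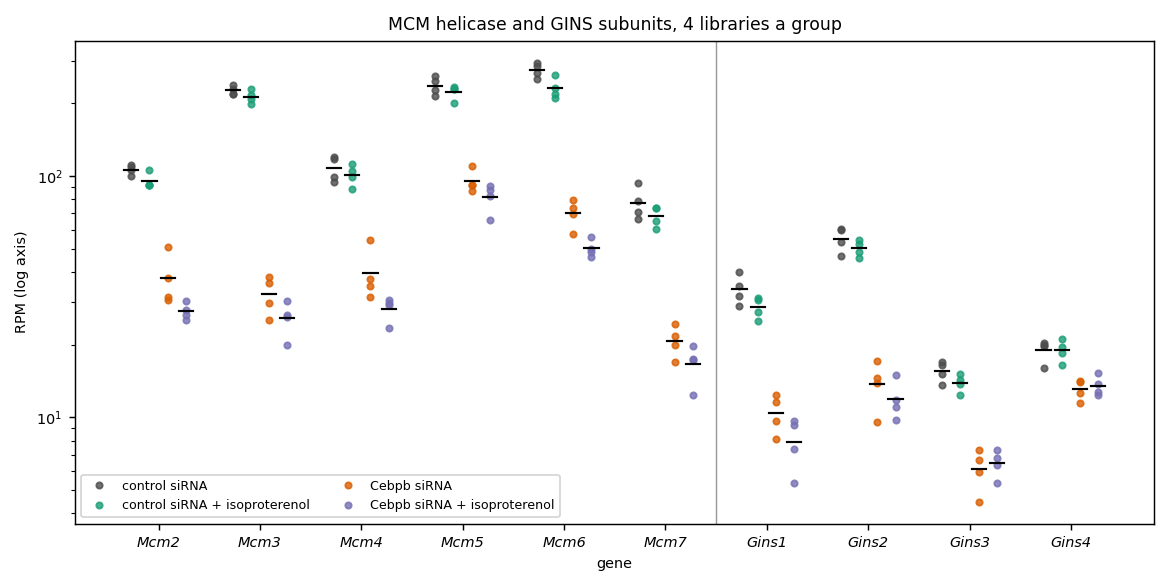
RPM (log axis) of the 6 MCM and 4 GINS subunits in each library; points are the 4 libraries of a group and lines their means. Mcm3 lies near Mcm5 and Mcm6 in control libraries (218.7 to 237.9 RPM) and near Mcm2 and Mcm4 in Cebpb siRNA libraries (25.3 to 38.3 RPM), while Gins4 moves least.

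Isoproterenol in control siRNA cells asks what β-adrenergic stimulation does on its own. Of the 48 genes 1 fell and none rose, where 0.443% of all genes were called lower and 1.21% higher. At an unadjusted limma p under 0.05 the members numbered 14 lower and 0 higher. The share of all genes at that looser threshold is not given here, so this count is not read as a result about the members. All 48 estimates were below zero, where 5602 of all 11060 genes tested were, and the median of the 48 was −0.15. The 48 share one set of libraries, so they are not independent of each other. Mcm6 was the member called: 266, 252, 287 and 295 RPM without and 219, 211, 232 and 262 RPM with isoproterenol. Its change was −0.28 ± 0.07 (limma adjusted p = 0.0249), or 82.1% of the unstimulated level, with −0.31 in experiment 1 and −0.26 in experiment 2, and the groups overlapped in RPM. The call was lost without library scaling (limma adjusted p = 0.0778), without the experiment term, within either experiment, without any 1 of the 4 unstimulated libraries and without replicate 2 of experiment 1 or replicate 1 of experiment 2 of the stimulated ones. Fitted on these 8 libraries only, 13 of the 48 were called lower, where 2.14% of 10699 genes were. Mitochondrial genes took 3.01% to 3.53% of reads without and 3.65% to 3.83% with isoproterenol, and the part of this in the result was not tested.

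In Cebpb siRNA cells isoproterenol lowered 17 of the 48 genes (35.4%) and raised none, where 2.48% of all genes were called lower and 3% higher. The median change was −0.26, and 45 of 48 estimates were below zero, where 5569 of all 11060 genes tested were. The 17 were Ung, Mcm6, Mcm10, Dut, Chaf1a, Rrm1, Rrm2, Cdc6, Mcm2, Mcm3, Mcm4, Mcm5, Prim1, Pole, Gins1, Cdca7 and Pcna, among them 5 of 6 MCM subunits and 4 of 6 nucleotide genes. The 3 fork protection genes were not called, at −0.22 to −0.35 with a median of −0.33, and neither were the 4 single-strand binding and joining genes, at −0.14 to −0.20. A difference between roles was not tested. Mitochondrial genes took 4.25% to 4.64% of reads without and 4.75% to 6.36% with isoproterenol in these cells, and the part of this in the result was not tested. The 17 became 7 within each experiment alone, 15 without the shallowest library and 11 without replicate 1 of experiment 2 of the Cebpb siRNA group. The share of all genes called in those fits is not given here, so the drop is not read as particular to the members. Fitted on the 8 libraries of Cebpb siRNA cells only, 5 members were called lower, where 0.907% of 10694 genes were.

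Ung had the largest fall. It was at 30.5, 39.6, 39.96 and 42.1 RPM with Cebpb siRNA and 22.4, 25.8, 25.7 and 24.01 RPM with Cebpb siRNA and isoproterenol, with no overlap (−0.68 ± 0.08, limma adjusted p = 6.01e-06). In control siRNA cells it was at 81.1, 71.1, 98.2 and 91.7 RPM without and 64.8, 74.96, 82.4 and 90.3 RPM with isoproterenol, with overlap (−0.16 ± 0.08, limma adjusted p = 0.448). Mcm6 went from 57.7, 69.7, 73.4 and 79.5 to 46.3, 50.1, 55.97 and 48.4 RPM (−0.52 ± 0.07, limma adjusted p = 2.06e-05), each stimulated library below each unstimulated one. Mcm10 was at 8.61, 8.12, 9.77 and 10.6 RPM after isoproterenol, below all 4 unstimulated Cebpb siRNA libraries given above (−0.50 ± 0.07, limma adjusted p = 9.63e-05). Dut went from 40.04, 45.98, 41.1 and 48.3 to 31.96, 37.1, 28.7 and 30.9 RPM (−0.50 ± 0.08, limma adjusted p = 3.21e-04), also without overlap. Those 3 genes and Ung were called in all 28 other settings tried. Over all 48 members, 11 were lower without overlap in this comparison. Of the members called, Rrm2, Mcm3, Mcm5, Gins1, Cdca7 and Pcna overlapped. The share of all genes lower without overlap is not given here, so this count is not read as a result about the members.

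Chaf1a was at 8.83, 11.6, 13 and 13.7 RPM after isoproterenol, all below its unstimulated values (−0.53 ± 0.10, limma adjusted p = 0.00131). Cdc6 was at 8.97, 10.98, 9.77 and 11.4 RPM, also below them (−0.36 ± 0.08, limma adjusted p = 0.0094). Rrm1 was at 46.04, 53.2, 49.98 and 48.2 RPM (−0.28 ± 0.06, limma adjusted p = 0.00557) and did not overlap with its unstimulated range of 53.6 to 62.5 RPM. Rrm2, at 9.19, 11.04, 7.06 and 9.39 RPM, overlapped with its unstimulated values (−0.57 ± 0.12, limma adjusted p = 0.00595), with −0.25 in experiment 1 and −0.88 in experiment 2. Mcm4 moved by −0.17 in experiment 1 and −0.85 in experiment 2, and Mcm2 by −0.25 in experiment 1 and −0.70 in experiment 2. Experiment 2 holds the shallowest library, with its high unstimulated values of both. Of the other members called, that library was also the highest unstimulated one for Ung, Mcm6, Dut, Chaf1a, Rrm1, Rrm2, Gins1, Cdca7 and Pcna. It was not the highest for Mcm10, Cdc6, Mcm3, Mcm5, Prim1 or Pole. The part of this in the result was not tested. Chaf1b, Rfc1 and Gins3 had estimates above zero, the highest 0.21 ± 0.14 for Chaf1b (limma adjusted p = 0.452), and none was called.

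**Figure D5:**
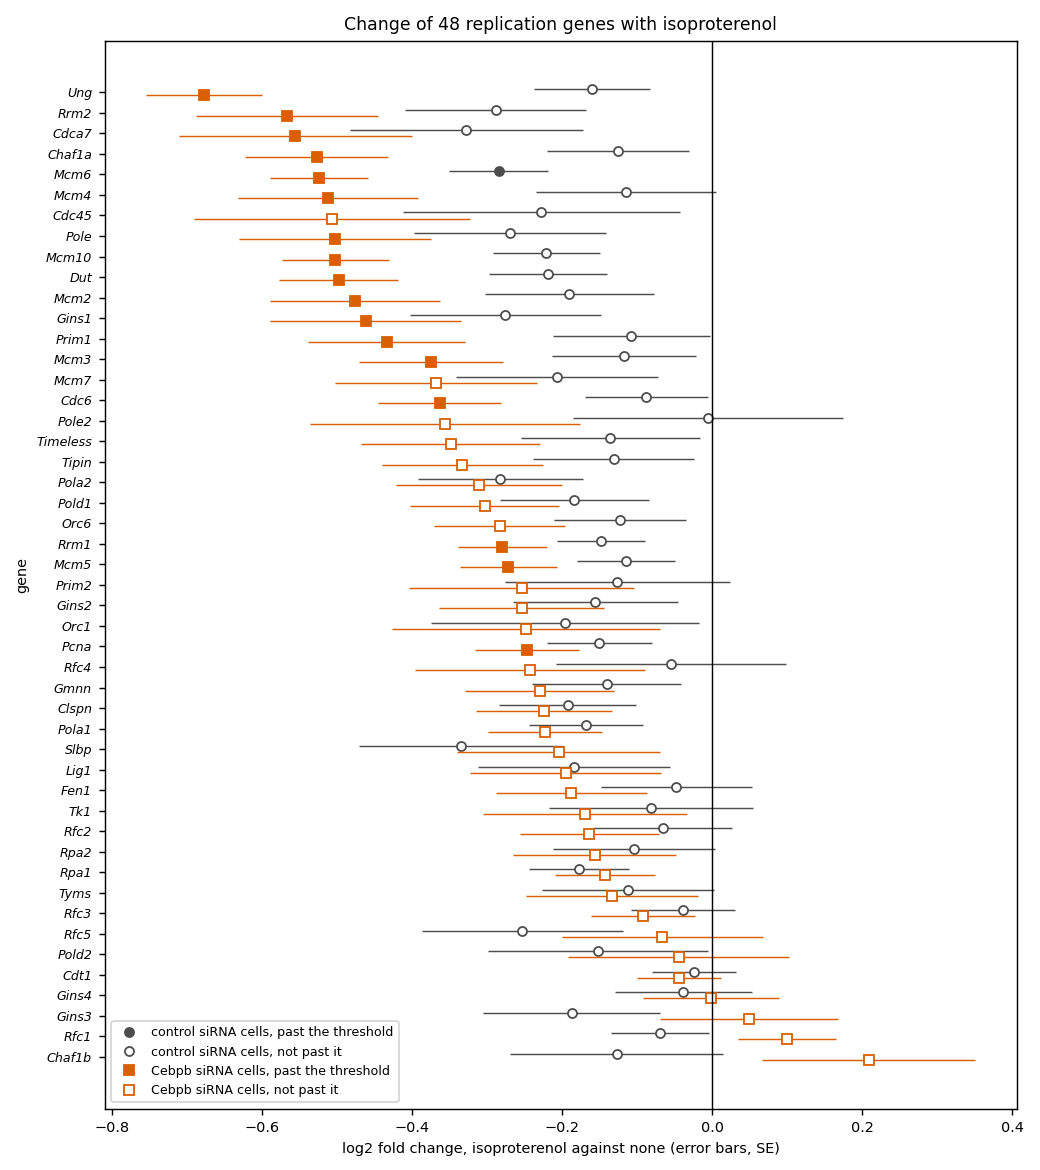
Log2 fold change with isoproterenol for each of the 48 genes in control siRNA cells (circles) and in Cebpb siRNA cells (squares), with SE from limma; filled symbols passed the threshold, open ones did not. In control siRNA cells 1 symbol is filled, in Cebpb siRNA cells 17.

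Whether the 2 isoproterenol effects differ was tested directly. Of the 48 genes 1, Ung, responded differently and none in the other direction, where 0.118% of all genes were called lower and 0.118% higher. At an unadjusted limma p under 0.05 there were 8 members lower and 0 higher, a count without the share of all genes beside it. The effect on Ung was lower in Cebpb siRNA cells by 0.52 ± 0.11 on the log2 scale (limma adjusted p = 0.0449), with differences of −0.40 in experiment 1 and −0.64 in experiment 2. The call held in 5 of 27 other settings, and the adjusted p ranged from 0.0137 to 0.842 over them.

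The experiments differed as well. Over the 4 groups, 15 of the 48 genes (31.2%) were higher in experiment 2 and 0 lower, where 17.4% of all genes were called higher and 15.5% lower. At an unadjusted limma p under 0.05 there were 22 higher and 0 lower, again without the share of all genes beside it. The largest was Timeless (0.34 ± 0.08, limma adjusted p = 0.00328), followed by Gins1 (0.31 ± 0.09), Fen1 (0.30 ± 0.07) and Mcm10 (0.30 ± 0.05). The change with Cebpb siRNA had the same sign in both experiments for each of the 48. The share of all genes for which this held is not given here.

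Genes outside the 48 but of the same processes were grouped in lists for comparison, in the contrast of Cebpb siRNA without isoproterenol. In that contrast 30.4% of all genes tested were called lower and 30.9% higher. Of 32 tested other replication genes 23 fell and 3 rose, with a median of −0.53. Asf1b, a histone chaperone, went from 59.4 ± 6.70 to 15.3 ± 1.59 RPM (SD, n = 4; −1.87 ± 0.10, limma adjusted p = 3.55e-13). Top2a, the topoisomerase that untangles replicated DNA, changed by −1.55 ± 0.09, the activator Dbf4 of the Cdc7 kinase by −1.07 ± 0.06 and Atad5, which unloads PCNA, by −1.46 ± 0.10. Top2a is counted among the mitosis genes as well. Of 33 other nucleotide synthesis genes 23 fell and 3 rose, median −0.58. The purine synthesis genes Atic (−1.30 ± 0.06) and Pfas (−1.64 ± 0.10) and the pyrimidine gene Umps (−1.78 ± 0.10) fell. Samhd1, which breaks deoxynucleoside triphosphates down, rose from 107 ± 24.6 to 205 ± 32.3 RPM (1.04 ± 0.05, limma adjusted p = 4.31e-13).

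Among 19 genes of E2F and Rb factors 13 fell and 4 rose, median −0.62, with changes from −2.52 to 0.54. The genes named here had the smallest adjusted p, and all of them fell. E2f2, an activating E2F, went from 50.6 ± 2.77 to 8.91 ± 1.13 RPM (−2.43 ± 0.10, limma adjusted p = 5.23e-15). E2f8, an atypical repressing E2F, changed by −1.68 ± 0.08, Foxm1, which drives genes of G2 and mitosis, by −1.37 ± 0.08, and Rbl1, which encodes p107, by −1.15 ± 0.08. Of 18 S phase checkpoint genes 16 fell and 0 rose, median −1.48, with Usp1 (−2.18 ± 0.08), the phosphatase Cdc25a (−1.67 ± 0.07), the Cdt1-degrading adaptor Dtl (−1.85 ± 0.08) and the APC/C inhibitor Fbxo5 (−1.97 ± 0.10). All 26 mitosis genes fell, median −1.15, with the smallest adjusted p for Cdk1 (−1.64 ± 0.07), Aurka (−1.30 ± 0.07), Cenpf (−1.27 ± 0.07) and Nusap1 (−1.51 ± 0.08). With isoproterenol the counts lower and higher were 25 and 3 for other replication genes, 24 and 3 for other nucleotide genes, 13 and 3 for E2F and Rb factors, 17 and 0 for checkpoint genes and 26 and 0 for mitosis genes. In that comparison 30.3% of all genes tested were called lower and 31.6% higher.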

How the data were processed

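The 16 libraries of RNA from RAW264.7 cells came from a QuantSeq 3′ FWD kit, as the labels' protocols state. The submitters' processing notes name STAR 2.5.3a and the GRCm38 build. Neither the counter nor its strand setting is named there. The authors deposited log2 RPM per gene, in which 1 RPM or less is listed as 0. Taken as RPM, 100% of listed values turned back into whole reads within a tolerance of 0.1 read. This shows that they are scaled counts, and the scaling to RPM itself was taken as given. Gene reads numbered 5.81 to 15.9 M per library, and the floor equals 9 to 25 reads. Rows that count reads of no gene were left out of the fit.

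Library scaling used trimmed log ratios (30% trimmed by ratio, 5% by level). A common floor of 1.07 scaled RPM was set, and a gene was tested if 4 or more libraries exceeded it. The fit was limma 3.58.1 (R 4.3.3) with trend and robust estimation, with the 4 groups and the experiment as terms. Errors of log2 changes are SE, and RPM levels are unscaled. Benjamini-Hochberg adjustment was used, with a threshold of 0.05. Ratios within libraries were compared by exact permutation tests. The steps were tested on simulated data. Other scalings, floors, transformations and filters, fits without the experiment term, within each experiment, with a replicate block, on the groups compared only and without each library were tried.

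The 48 members and the lists were chosen with earlier results of these data known. Values in every library are given for the 8 members with the largest fall and the 3 with the smallest change with Cebpb siRNA without isoproterenol, for members called with isoproterenol (the first 8 by adjusted p) or in the difference, for the member of highest level in each role, and up to 4 genes by adjusted p of each other list.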

Additional observations from a re-analysis of the deposited data

Results flagged for a closer look

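In 8 of 192 sets of 4 libraries (48 genes in 4 groups) one library stood apart by more than Dixon's 95% critical value, where chance gives about 1 in 20. With Cebpb siRNA, Gmnn was at 24.4 RPM in replicate 2 of experiment 2, above 16.6 to 17.8 RPM in the other 3. With control siRNA, Gins4 was at 15.98 RPM in replicate 2 of experiment 1, below 19.8 to 20.4 RPM. With control siRNA and isoproterenol, Mcm2 was at 106.1 RPM and Rfc5 at 23.3 RPM in replicate 2 of experiment 2, and Mcm5 at 201 RPM in replicate 1 of experiment 1. With Cebpb siRNA and isoproterenol, Fen1 was at 36.1 RPM in replicate 1 of experiment 2, Chaf1b at 3.08 RPM in replicate 2 of experiment 2 and Cdca7 at 2.54 RPM in replicate 2 of experiment 1.

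The isoproterenol effect on Ung differed between the siRNAs in the test of the difference itself, by −0.52 on the log2 scale (Cebpb siRNA minus control siRNA). This call held in 5 of 27 other settings, with limma adjusted p-values of 0.0137 to 0.842 over them.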

How the results depend on the processing

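With Cebpb siRNA without isoproterenol the count of members called lower was 48 in every setting but experiment 2 alone, where it was 46, and 48 to 48 without 1 library. With isoproterenol it was 48 in every setting but experiment 2 alone and 3 settings that leave out 1 library, where it was 47, and none was called higher in either comparison. The calls with isoproterenol depended on the fit. In control siRNA cells the 1 member called became 0 without scaling, without the experiment term and in experiment 1 or 2 alone, and 13 when only the groups compared were fitted; leaving out 1 library gave 0 to 1. In Cebpb siRNA cells the 17 became 7 without the experiment term and 7 in experiment 1 or 2 alone, 5 when only the groups compared were fitted, and 11 to 18 without 1 library. For the difference the 1 call became 0 without scaling, with log2(RPM + 1), with genes above the floor in all 16 libraries, with no filter, without the experiment term, in experiment 1 or 2 alone, with the replicate block and without robust estimation, and 0 to 1 without 1 library. The cause of these changes was not tested. For most settings the share of all genes called is not given here. The changes in count are thus not read as particular to the members. Of the ratios, 0 passed, and 0 to 23 subunit ratios and 0 to 4 pair ratios without 1 library, which by construction depends on whether 27 ratios reach the smallest p. The count higher in experiment 2, 15, was 13 to 18 without 1 library.

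Replicate numbers did not pair the samples: of 12 correlations of deviations between same-numbered libraries, from −0.192 to 0.23, 3 were over 0.1. With the replicate block the members called lower were 48, 48, 1 and 17 in the comparisons of siRNA without and with isoproterenol and of isoproterenol in control and in Cebpb siRNA cells. Depth limits Pole2, Cdca7, Chaf1b and Orc1, whose levels in Cebpb siRNA libraries come near the floor of 1 RPM.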

Other observations

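Isoproterenol in Cebpb siRNA cells also lowered genes outside the 48, in a comparison where 2.48% of all genes tested were called lower and 3% higher. Of 32 other replication genes 4 fell and 1 rose. Mcm9, a helicase related to the MCM subunits, changed by −0.54 ± 0.11, Atad5 by −0.45 ± 0.10 and Wdhd1 by −0.44 ± 0.11, and the topoisomerase Top1 rose from 389.6 ± 29.4 to 483 ± 53.4 RPM (0.26 ± 0.06, limma adjusted p = 0.0108). Of 33 other nucleotide synthesis genes 7 fell and 1 rose. Shmt1, an enzyme of the folate cycle, went from 20.8 ± 3.51 to 14.2 ± 1.66 RPM (SD, n = 4; −0.59 ± 0.10, limma adjusted p = 5.04e-04), and Atic, Ctps and Ppat, of purine and CTP synthesis, changed by −0.39 ± 0.06, −0.43 ± 0.09 and −0.37 ± 0.08. Of 18 S phase checkpoint genes 5 fell and 0 rose, among them Ccne1, cyclin E1 (−0.53 ± 0.10, limma adjusted p = 0.00138), Chek1 (−0.48 ± 0.11) and the kinase Wee1 (−0.80 ± 0.19). E2f1 changed by −0.46 ± 0.09 (limma adjusted p = 0.002) and was the 1 gene of 19 E2F and Rb factors called. Of 26 mitosis genes 5 fell.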
